A study of Mus musculus with 7 samples.

Results

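The genes of mevalonate, sterol and isoprenoid synthesis were followed in duodenal RNA of mice given the liver X receptor (LXR) agonist T09 or vehicle. They were chosen by name, as the rows of the deposited table that carry 1 of 29 listed gene symbols, and all 29 were found among 47069 genes. The list does not hold every enzyme of the route. It was divided by position into 7 mevalonate genes (Acat2 to Fdps), 12 sterol genes (Fdft1 to Dhcr7), 1 sterol carrier (Stard4) and 9 genes of the non-sterol isoprenoid branches (Ggps1 to Pggt1b). All 29 passed the filter on low counts and were tested among 14250 genes.

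The libraries came from male C57BL/6 mice of 8 to 12 weeks (C57BL/6J in the series description), 1 library for each of 7 mice. Vehicle mice (n = 4) were given 0.5% carboxymethylcellulose. T09 mice (n = 3) were given T09, which is T0901317, at 50 mg/kg/day. The carrier of T09, the length of treatment and whether the mice shared litters or cages are not given in sources used here. The p-values set the group difference against the spread within groups of these 7 libraries. They take each library as independent, so shared litters or cages would not be accounted for.

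The mevalonate route turns acetyl-CoA into 5-carbon isoprene units and joins them into farnesyl diphosphate, where the sterol branch leaves through squalene and the other branches lead to ubiquinone, dolichol and the lipid anchors of proteins. The transcription factor SREBP-2 raises transcription of these enzymes when membrane cholesterol is low, and the sterol-sensing proteins Scap and Insig hold it back when cholesterol is high. LXR is a nuclear receptor that binds oxysterols and raises genes of cholesterol export and of fatty acid synthesis. The intestinal epithelium both absorbs cholesterol and makes it.

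Total counts lay between 15395535 and 20494485 per library. All 12 enterocyte markers were detected in both groups, and they took 5.37% to 5.53% of counts with vehicle and 5.29% to 5.42% with T09. Of them edgeR called 2 higher (Fabp1 and Fabp2) and 0 lower, with 2 lower at an unadjusted p under 0.05 and 2 lower by DESeq2 (Lct and Vil1). All 7 LXR targets read beside the treatment were called higher by edgeR, against 1.44% of all genes tested, with log2 fold changes from 0.81 to 4.85. They were the exporter genes Abca1, Abcg1, Abcg5 and Abcg8, the LDL receptor ligase gene Mylip and the lipid enzyme genes Scd2 and Lpcat3. This list was chosen with earlier results of these data known, so it is not an independent check of treatment. Levels are in CPM (counts relative to library size after TMM scaling), and Abca1 went from 90.4 ± 21.5 CPM (SD, n = 4) to 481 ± 27.97 CPM (SD, n = 3). Markers of other cells also moved with the groups. Over all genes tested, edgeR called 2.87% lower, and 10.6% were lower at an unadjusted p under 0.05. The 10 smooth muscle markers took 0.139% to 0.221% of counts with vehicle and 0.0408% to 0.0640% with T09, and all 10 fell (Acta2, Actg2, Myh11, Tagln, Cnn1, Des, Synpo2, Lmod1, Smtn and Mylk). The 10 neuron and glia markers took 0.00155% to 0.00258% and 0.000493% to 0.000608%, and edgeR called 4 lower (Stmn2, Tubb3, Uchl1 and Syt1). All 9 tested had log2 fold changes below 0, with 7 at an unadjusted p under 0.05 by edgeR. DESeq2 called 5 lower. The 7 adipocyte markers took 0.000831% to 0.0241%, highest in vehicle replicate 4, and 0.000107% to 0.000571% with T09, where 1 was at 0. Pancreatic acinar markers were highest in vehicle replicate 1 (0.0788%) and B and plasma cell markers in T09 replicate 1 (0.0768%). All 7 fibroblast markers had log2 fold changes below 0 (median -0.86), with 3 at an unadjusted p under 0.05 by edgeR. Of them edgeR called 1 lower (Postn) and DESeq2 2 (Lum and Postn). The part of these differences in the results was not tested, and in whole tissue fewer cells of a type and less RNA per cell cannot be told apart.

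Squalene epoxidase (Sqle), lanosterol demethylase (Cyp51) and mevalonate diphosphate decarboxylase (Mvd) were the 3 members called, all lower with T09. Sqle fell to 0.377 of its vehicle level, Cyp51 to 0.508 and Mvd to 0.524. No member was called higher, and the other 26 were not called.

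By edgeR's quasi-likelihood test with Benjamini-Hochberg adjustment over all genes, 3 of 29 members (10.3%) were lower at an adjusted p under 0.05, where 2.87% of all genes tested were lower, 1.44% higher and 4.31% either. With no adjustment, 8 members were lower and 1 was higher at a p under 0.05 (27.6% and 3.45% of members, against 10.6% and 7.26% of all genes). DESeq2 and limma-voom also called 0 members higher. DESeq2 called 6 members lower, where it called 719 of all 14250 genes lower. The groups did not overlap for 7 members with T09 lower and for 1 with T09 higher, which is 24.1% and 3.45% of members against 9.69% and 7.07% of all genes. The median log2 fold change was -0.49 over the 7 mevalonate genes, -0.14 over the 12 sterol genes and 0.11 over the 9 non-sterol isoprenoid genes, beside 0.02 over all genes tested. Of the log2 fold changes, 6 of 7, 9 of 12 and 2 of 9 were below 0, beside 6713 of 14250 over all genes tested. The mevalonate gene above 0 was Fdps, which held 94 counts over all libraries. With the filter of at least 1 CPM in 3 libraries, which leaves Fdps untested, the mevalonate median was -0.55. These medians describe the branches and were not tested.

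**Figure D1:**
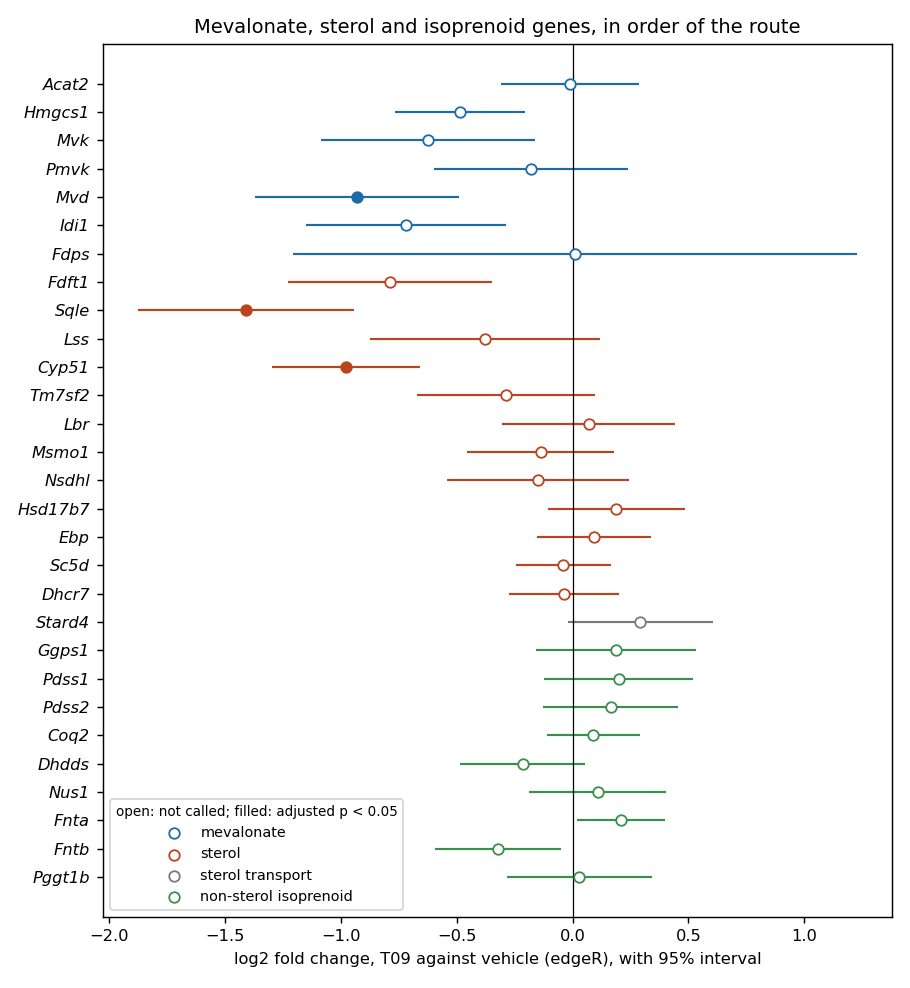
Log2 fold change of each member, T09 against vehicle, from edgeR, with its 95% interval, in the order of the route and coloured by branch. Filled points are the 3 members called (Mvd, Sqle and Cyp51), and the points from Msmo1 to Dhcr7 lie between -0.15 and 0.19.

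Promoters of 6 members are shown as the DNA from 250 bases before to 50 bases after the RefSeq start on GRCm38.p6, in the direction of transcription. Mvd and Cyp51 are called members, Idi1 and Lss stand beside them in the route, and Ggps1 opens a non-sterol branch. Hmgcs1 was added after the search, as the member whose window holds an exact match to the sterol regulatory element searched. Capitals mark that element (TCACNCCAC) and the NF-Y box (CCAAT, or ATTGG on the other strand). The windows are chr13:119690101-119690400 (plus strand) for Hmgcs1, chr8:122443373-122443672 (minus) for Mvd, chr13:8885356-8885655 (plus) for Idi1, chr10:76531355-76531654 (plus) for Lss, chr5:4104648-4104947 (minus) for Cyp51 and chr13:14063439-14063738 (minus) for Ggps1.
Hmgcs1: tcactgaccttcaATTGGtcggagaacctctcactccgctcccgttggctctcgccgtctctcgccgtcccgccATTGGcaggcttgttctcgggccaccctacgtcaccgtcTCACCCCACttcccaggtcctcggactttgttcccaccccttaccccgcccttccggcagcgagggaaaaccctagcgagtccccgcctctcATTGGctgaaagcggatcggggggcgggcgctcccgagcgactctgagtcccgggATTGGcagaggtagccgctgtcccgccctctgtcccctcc
Mvd: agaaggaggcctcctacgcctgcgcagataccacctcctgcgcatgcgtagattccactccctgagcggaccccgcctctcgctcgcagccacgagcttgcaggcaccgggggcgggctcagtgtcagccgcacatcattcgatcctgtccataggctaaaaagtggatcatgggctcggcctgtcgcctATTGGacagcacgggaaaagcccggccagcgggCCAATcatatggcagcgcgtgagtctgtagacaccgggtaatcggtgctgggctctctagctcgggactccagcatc
Idi1: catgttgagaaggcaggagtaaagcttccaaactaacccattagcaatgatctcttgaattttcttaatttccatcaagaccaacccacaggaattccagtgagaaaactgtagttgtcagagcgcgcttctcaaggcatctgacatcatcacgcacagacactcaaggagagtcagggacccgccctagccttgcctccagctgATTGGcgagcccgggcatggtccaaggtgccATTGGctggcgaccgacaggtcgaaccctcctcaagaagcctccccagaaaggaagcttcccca
Lss: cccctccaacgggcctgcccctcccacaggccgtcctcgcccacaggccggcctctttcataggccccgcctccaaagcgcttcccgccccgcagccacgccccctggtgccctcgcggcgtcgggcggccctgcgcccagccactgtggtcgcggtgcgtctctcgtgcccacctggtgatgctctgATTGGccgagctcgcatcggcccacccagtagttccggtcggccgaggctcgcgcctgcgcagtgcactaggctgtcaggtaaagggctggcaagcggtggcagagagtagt
Cyp51: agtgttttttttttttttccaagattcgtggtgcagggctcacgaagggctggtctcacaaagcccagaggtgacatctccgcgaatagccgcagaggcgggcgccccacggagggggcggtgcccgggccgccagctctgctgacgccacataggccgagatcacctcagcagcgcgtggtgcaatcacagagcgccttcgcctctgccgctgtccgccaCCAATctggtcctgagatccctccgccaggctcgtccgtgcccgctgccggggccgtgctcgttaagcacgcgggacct
Ggps1: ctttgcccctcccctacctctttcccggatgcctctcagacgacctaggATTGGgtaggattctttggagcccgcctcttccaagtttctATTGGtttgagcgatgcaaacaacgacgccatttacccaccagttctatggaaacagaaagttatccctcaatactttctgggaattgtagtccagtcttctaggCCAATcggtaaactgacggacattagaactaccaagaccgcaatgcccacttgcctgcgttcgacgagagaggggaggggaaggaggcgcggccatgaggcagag

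A RefSeq window was found for 23 members. Fdps, Fdft1, Sqle, Stard4, Fnta and Pggt1b had no entry. Motifs were searched as exact letters on both strands: the sterol regulatory element TCACNCCAC, the E-box CACGTG, the NF-Y box CCAAT, the GC box GGGCGG, and an LXR element of 2 copies of AGGTCA spaced by 4 bases. None of the first 4 contains another. The sterol regulatory element in these exact letters was in 1 of 23 member windows (4.35%) and in 1.13% of windows of genes tested. That window was the one of Hmgcs1, where the match begins 137 bases before the start. The NF-Y box was in 17 of 23 member windows (73.9%), against 37.3% of windows of genes tested and 37.4% of all windows. By branch it was in 5 of 6 mevalonate, 9 of 10 sterol and 3 of 7 non-sterol windows. The GC box was in 19 of 23 (82.6%, against 60.5% of windows of genes tested and 35.6% of all), the E-box in 3 of 23 (against 9.56%) and the LXR repeat in 0 of 23 and 0 of 12852. The NF-Y box was thus present in windows of members that fell (Mvd, Cyp51) and of members that were not called (Nsdhl with 4 copies, Ebp with 2). A match describes letters only. Other spellings of an element were not searched, so a window with no match is not shown to lack the element. The window of Fntb starts 71878 bases from the 5′ end that the deposited table gives.

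Among the mevalonate genes, Acat2, the cytosolic thiolase that condenses acetyl-CoA, stood at 15.5, 20.1, 17.6 and 19.4 CPM with vehicle and at 16.5, 18.2 and 19.2 CPM with T09. The groups lay over each other (log2 fold change -0.01, 95% interval -0.31 to 0.29). Hmgcs1, the cytosolic synthase that makes HMG-CoA, stood at 78.5, 107, 88.7 and 81.2 CPM with vehicle and at 58.9, 62.3 and 69.5 CPM with T09. Every T09 library lay below every vehicle library, with a fitted difference of -28.6%. The log2 fold change, -0.49 (SE 0.13), missed the threshold (adjusted p 0.0643 by edgeR).

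The kinases Mvk and Pmvk, which phosphorylate mevalonate in succession, were not called. Mvk stood at 14.6, 22.7, 27.3 and 20.1 CPM with vehicle and at 11.8, 15.2 and 14.1 CPM with T09. Vehicle replicate 1 lay among the T09 libraries, and without it the log2 fold change of Mvk went from -0.62 (SE 0.21, adjusted p 0.146 by edgeR) to -0.77 (adjusted p 0.0464 by edgeR). Pmvk had a log2 fold change of -0.18 (SE 0.19), with T09 values from 8.06 to 13.1 CPM around vehicle values from 10.01 to 12.6 CPM.

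Mvd removes carbon dioxide from mevalonate diphosphate to give the isoprene unit. It stood at 10.3, 15.95, 13.5 and 11.7 CPM with vehicle and at 6.33, 5.85 and 8.05 CPM with T09. The groups were apart, and the log2 fold change was -0.93 (SE 0.20, adjusted p 0.0301 by edgeR). The call was lost without vehicle replicate 2, 3 or 4 (edgeR adjusted p 0.0596, 0.0847 and 0.0635) and without T09 replicate 1 or 2 (edgeR adjusted p 0.0561 and 0.121), while the log2 fold change stayed between -1.075 and -0.81 over the omissions.

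Idi1, the isomerase that makes the starter for chain building, stood at 24.8, 45.02, 34.2 and 29.6 CPM with vehicle and at 19.04, 22.3 and 19.6 CPM with T09. The groups did not overlap, but vehicle replicates were spread over a wide range (coefficient of variation 25.9%). The log2 fold change of -0.72 (SE 0.19) had an edgeR adjusted p of 0.0723, which became 0.0374 without vehicle replicate 1.

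Fdps, which makes farnesyl diphosphate, gave no usable measure. It held 94 counts over the 7 libraries, from 3 in vehicle replicate 4 to 18 in vehicle replicate 2, and its 95% interval ran from -1.21 to 1.23 on the log2 scale. In GENCODE M21, transcripts of 5 other genes matched an Fdps transcript over at least 300 bases at 95% identity or more. Among them were the pseudogene Gm3571 (98.9% over 1062 bases) and Gm43738 (100% over 929 bases), both with 0 counts. Gm43738 is a protein-coding gene that shares 197 exon bases with Fdps on the same strand. The counting of shared reads is not given in sources used here. By the same limits 9 members had such a match, among them Acat2 with Tcp1 (98.7% over 445 bases, 7481 counts against 2322 of Acat2) and with Acat3 (97.7% over 1477 bases, 83 counts), and Idi1 with the pseudogene Gm35570 (97.7% over 681 bases, 533 counts), so reads may be shared between these genes and their values are uncertain.

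The sterol branch opens with Fdft1, the squalene synthase that joins farnesyl units. Fdft1 stood at 19.5, 32.1, 25.01 and 18.9 CPM with vehicle and at 12.4, 14.5 and 14.6 CPM with T09. All T09 libraries were below all vehicle libraries. The log2 fold change was -0.79 (SE 0.20) with an edgeR adjusted p of 0.0580, just outside the threshold. Exons of Fdft1 share 774 bases with exons of Ctsb on the opposite strand in M21, and without known strand handling reads there cannot be told apart. Ctsb, the gene of the protease cathepsin B, held 84193 counts over all libraries against 2504 of Fdft1, and its own log2 fold change was -0.05 (SE 0.09).

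Sqle adds oxygen to squalene, a step that limits the rate of the branch. It stood at 19.6, 29.6, 26.98 and 20.96 CPM with vehicle and at 11.6, 8.28 and 7.52 CPM with T09. The highest T09 library was well below the lowest vehicle library. Sqle had the largest change of the 29 members, with a log2 fold change of -1.41 (SE 0.21, 95% interval -1.87 to -0.94, adjusted p 0.00678 by edgeR). It was called under all 17 alternatives run, including the test against a 1.5-fold change and the omission of each library.

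Lss, which closes the ring to lanosterol, followed at 9.13, 17.5, 15.1 and 13.5 CPM with vehicle and 9.02, 10.5 and 12.3 CPM with T09. The groups overlapped through vehicle replicate 1, and the log2 fold change of -0.38 (SE 0.22, adjusted p 0.426 by edgeR) did not pass. Cyp51 removes the first methyl group from lanosterol. It stood at 25.8, 35.5, 28.3 and 26.8 CPM with vehicle and at 16.1, 14.2 and 13.97 CPM with T09. The T09 libraries lay close together and apart from vehicle, with a log2 fold change of -0.98 (SE 0.14, 95% interval -1.30 to -0.66, adjusted p 0.00677 by edgeR). The call held when each library was left out and was lost only against a 1.5-fold change (adjusted p 0.108 by edgeR). Cyp51 shares 166 exon bases with Akap9 on the opposite strand, whose log2 fold change was 0.10 (SE 0.13).

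By the deposited coordinates, whose build is not named, Sqle (ENSMUSG00000022351) lies on chromosome 15 from 59315077 to 59331192, Cyp51 (ENSMUSG00000001467) on chromosome 5 from 4081145 to 4104746 and Mvd (ENSMUSG00000006517) on chromosome 8 from 122433596 to 122443422. The ends are those of GENCODE M21 on GRCm38 for Sqle and Cyp51, and differ from them for Mvd. 

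**Figure D2:**
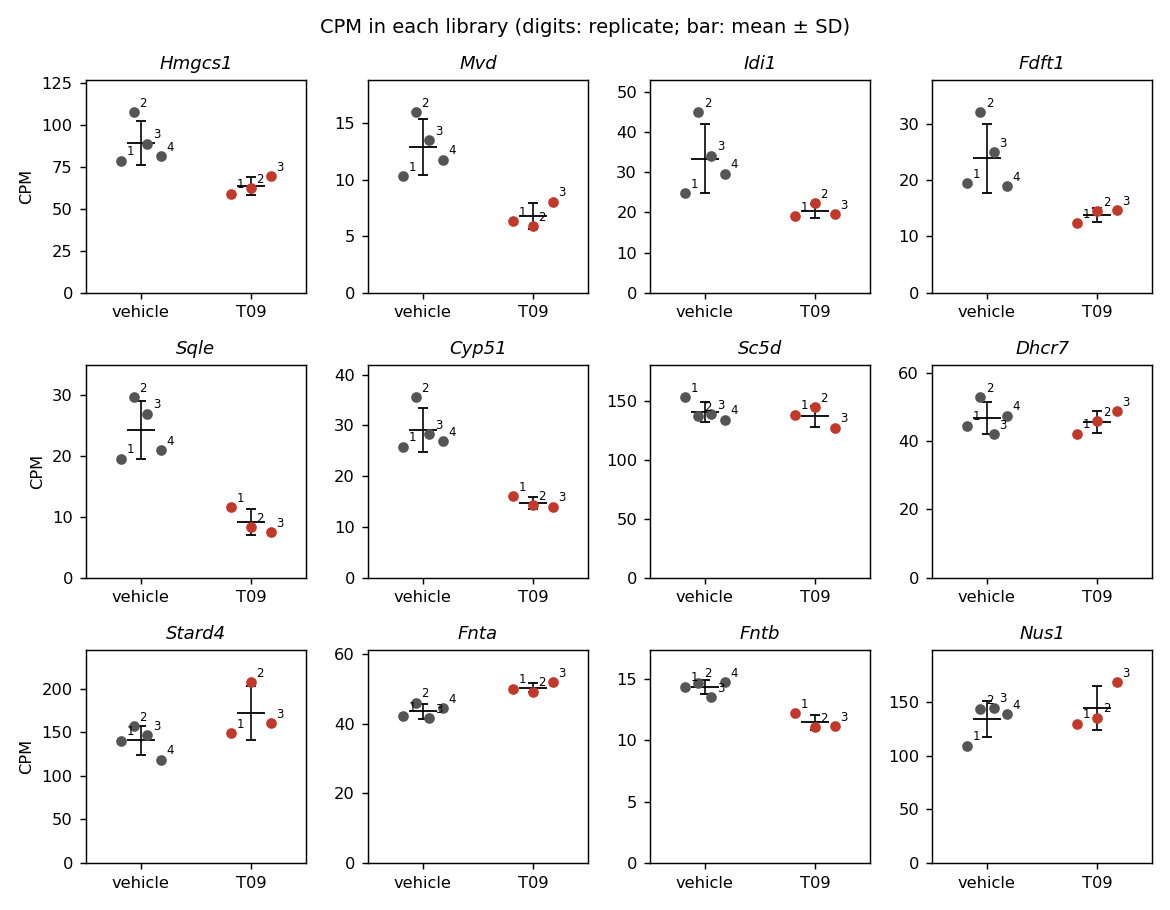
CPM of 12 members in each library, with the replicate number beside each point and the group mean and SD as bars, on axes that start at 0. Hmgcs1, Mvd, Idi1, Fdft1, Sqle, Cyp51 and Fntb have all 3 T09 libraries below all 4 vehicle libraries, Fnta has them above, and Sc5d and Dhcr7 overlap.

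Of the 8 sterol genes listed after Cyp51, 0 were called by edgeR, DESeq2 or limma-voom, and 0 had an unadjusted p under 0.05 by edgeR. With 4.31% of all genes tested called, 0 of 8 is near the background, and the division at Cyp51 was drawn after the values were seen. Tm7sf2 and Lbr, both able to reduce the C14 double bond, had log2 fold changes of -0.29 (SE 0.17) and 0.07 (SE 0.17). Lbr is also a protein of the inner nuclear membrane. Tm7sf2 shares 532 exon bases with Vps51 on the same strand, which had a log2 fold change of -0.30 (SE 0.13).

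The enzymes that clear the C4 methyl groups are Msmo1, Nsdhl and Hsd17b7. Msmo1, the oxidase, stood at 68.3, 86.0, 76.2 and 68.9 CPM with vehicle and at 55.7, 66.7 and 81.9 CPM with T09. The groups overlapped, with the lowest value in a T09 library and the highest in a vehicle library, and the log2 fold change was -0.14 (95% interval -0.46 to 0.18). The dehydrogenase Nsdhl and the reductase Hsd17b7 had log2 fold changes of -0.15 (SE 0.18) and 0.19 (SE 0.13).

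The last members of the branch, the isomerase Ebp, the desaturase Sc5d and the 7-dehydrocholesterol reductase Dhcr7, had overlapping groups. Sc5d stood at 153, 137, 139 and 134 CPM with vehicle and at 139, 145 and 127 CPM with T09. Its 95% interval ran from -0.25 to 0.16. Dhcr7, the final reductase of cholesterol synthesis, stood at 44.5, 52.8, 42.0 and 47.4 CPM with vehicle and at 42.1, 45.7 and 48.7 CPM with T09. Its 95% interval ran from -0.28 to 0.20, and that of Ebp from -0.16 to 0.34. The differences between members were not tested.

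Stard4, a soluble carrier of sterol between membranes, stood at 140.1, 157, 147 and 118 CPM with vehicle and at 149, 207 and 161 CPM with T09. T09 replicate 2 was the highest and the groups overlapped. The log2 fold change of 0.29 (SE 0.14, 95% interval -0.02 to 0.60, adjusted p 0.309 by edgeR) did not pass.

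Ratios of read counts within a library do not depend on the scaling of libraries. Cyp51 had 0.579, 0.673, 0.673 and 0.566 counts per count of Dhcr7 in the vehicle libraries and 0.381, 0.312 and 0.287 in the T09 libraries. The ratio of group means was 0.524. Sqle over Sc5d went from 0.174 ± 0.0394 (SD, n = 4) to 0.0665 ± 0.0148 (SD, n = 3), and Mvd over Acat2 from 0.708 ± 0.0882 (SD, n = 4) to 0.374 ± 0.0492 (SD, n = 3). In all 3 ratios the groups did not overlap. The pairs were chosen after the values were seen, and the ratios were not tested.

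**Figure D3:**
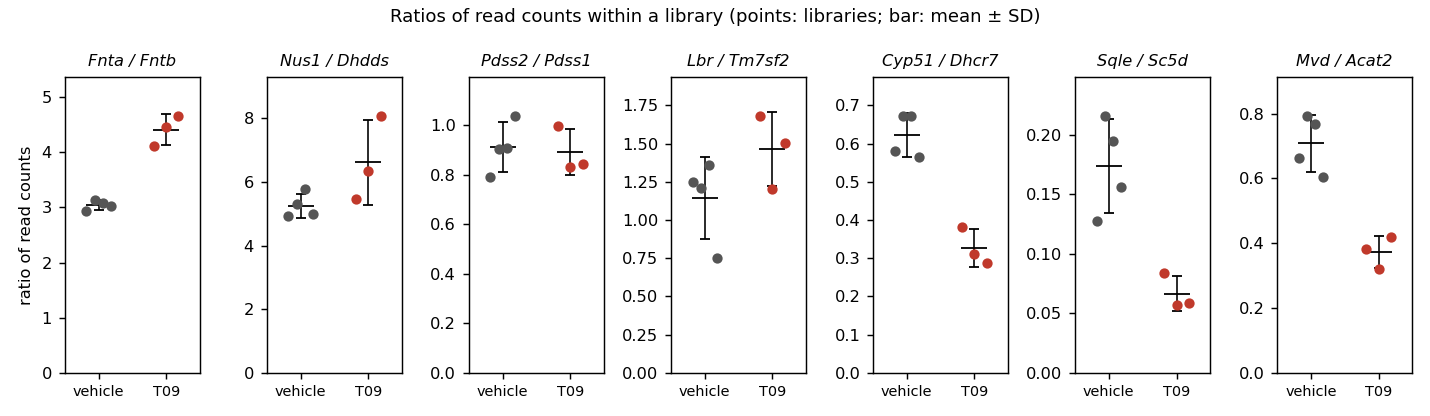
Ratios of read counts between 2 members within each library, on axes that start at 0, with the group mean and SD as bars. Cyp51 over Dhcr7, Sqle over Sc5d and Mvd over Acat2 are lower in every T09 library, Fnta over Fntb is higher in every T09 library, and the other 3 ratios overlap.

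The non-sterol branches held 0 called members of 9 by edgeR, DESeq2 or limma-voom. At an unadjusted p under 0.05 by edgeR, 1 was lower (Fntb) and 1 higher (Fnta). That is 11.1% each way, against 10.6% lower and 7.26% higher of all genes tested. With 4.31% of all genes tested called by edgeR, 0 of 9 is near the background too. Ggps1, which makes the geranylgeranyl diphosphate used on proteins, stood at 12.2, 10.2, 11.1 and 10.02 CPM with vehicle and at 10.5, 12.4 and 14.3 CPM with T09. The groups overlapped (log2 fold change 0.19, SE 0.15). Pdss1 and Pdss2, the subunits of the enzyme that builds the ubiquinone side chain, had log2 fold changes of 0.20 (SE 0.14) and 0.16 (SE 0.13). Coq2, which attaches that chain to the ring, had one of 0.09 (95% interval -0.11 to 0.29). T09 replicate 3 was the highest of all 7 libraries for Ggps1, Pdss1, Pdss2 and Coq2.

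Dhdds and Nus1 form the cis-prenyltransferase that begins dolichol, the lipid carrier of glycans. Dhdds stood at 22.3, 27.1, 25.1 and 27.8 CPM with vehicle and at 23.9, 21.4 and 20.8 CPM with T09. Nus1 stood at 109.5, 144, 145 and 139 CPM with vehicle and at 130.03, 135 and 168 CPM with T09. Neither was called (log2 fold changes -0.21, SE 0.12, and 0.11, SE 0.13), and for both the groups overlapped.

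Protein prenylation was represented by the alpha subunit Fnta, shared by the farnesyl and the geranylgeranyl transferase, and by their beta subunits Fntb and Pggt1b. Fnta stood at 42.1, 46.1, 41.7 and 44.5 CPM with vehicle and at 50.1, 49.3 and 51.9 CPM with T09. Fntb stood at 14.4, 14.7, 13.5 and 14.7 CPM with vehicle and at 12.2, 11.05 and 11.1 CPM with T09. For both genes the groups were apart, in opposite directions, with a narrow spread within vehicle (coefficients of variation 4.76% and 3.99%). Neither passed over all genes: the log2 fold changes were 0.21 (SE 0.08, adjusted p 0.235 by edgeR) and -0.32 (SE 0.12, adjusted p 0.2001 by edgeR). Fnta counts per Fntb count were 2.93, 3.14, 3.09 and 3.02 with vehicle and 4.11, 4.46 and 4.67 with T09, a ratio of means of 1.45. With the 2 genes apart in opposite directions, the groups of this ratio had to be apart, so it adds no evidence. The ratio was not tested. Fntb shares 136 exon bases with Churc1 on the same strand, whose log2 fold change was 0.77 (SE 0.29, adjusted p 0.196 by edgeR). Pggt1b had a log2 fold change of 0.03 (95% interval -0.28 to 0.34).

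The vehicle libraries themselves differed along the route. Vehicle replicate 2 was the highest of the 4 for 5 of 7 mevalonate genes, 8 of 12 sterol genes and 3 of 9 non-sterol genes (71.4%, 66.7% and 33.3%), and for 25.9% of all genes tested. The median coefficient of variation across vehicle libraries was 18.98% for mevalonate, 14.02% for sterol and 9.72% for non-sterol genes, beside 15.4% over all genes tested. The median deviation of the mevalonate genes from their vehicle mean was -0.22, 0.28, 0.09 and -0.11 on the log2 CPM scale in vehicle replicates 1 to 4, and -0.58, -0.50 and -0.35 in T09 replicates 1 to 3. All T09 values were thus below all vehicle values, while for the sterol genes T09 replicate 2 (0.0031) lay within the vehicle range (-0.11 to 0.22) and T09 replicates 1 and 3 (-0.25 and -0.14) lay below it.

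The 12 crypt and proliferation markers were also highest in vehicle replicate 2, at 0.0494% of counts, and lowest in vehicle replicate 1, at 0.0295%. With T09 they took 0.0308% to 0.04405%, within the vehicle range, and 0 of 12 were called by edgeR (1 higher and 0 lower at an unadjusted p under 0.05, and 0 by DESeq2 and limma-voom). With 4.31% of all genes tested called by edgeR, 0 of 12 is near the background. The part of crypt content in the spread between vehicle libraries was not tested. Without vehicle replicate 2 the median log2 fold change was -0.38 for the mevalonate and -0.06 for the sterol genes, and Cyp51 and Sqle were called. Without vehicle replicate 1 the called members were 5, with Idi1 and Mvk besides Cyp51, Mvd and Sqle.

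**Figure D4:**
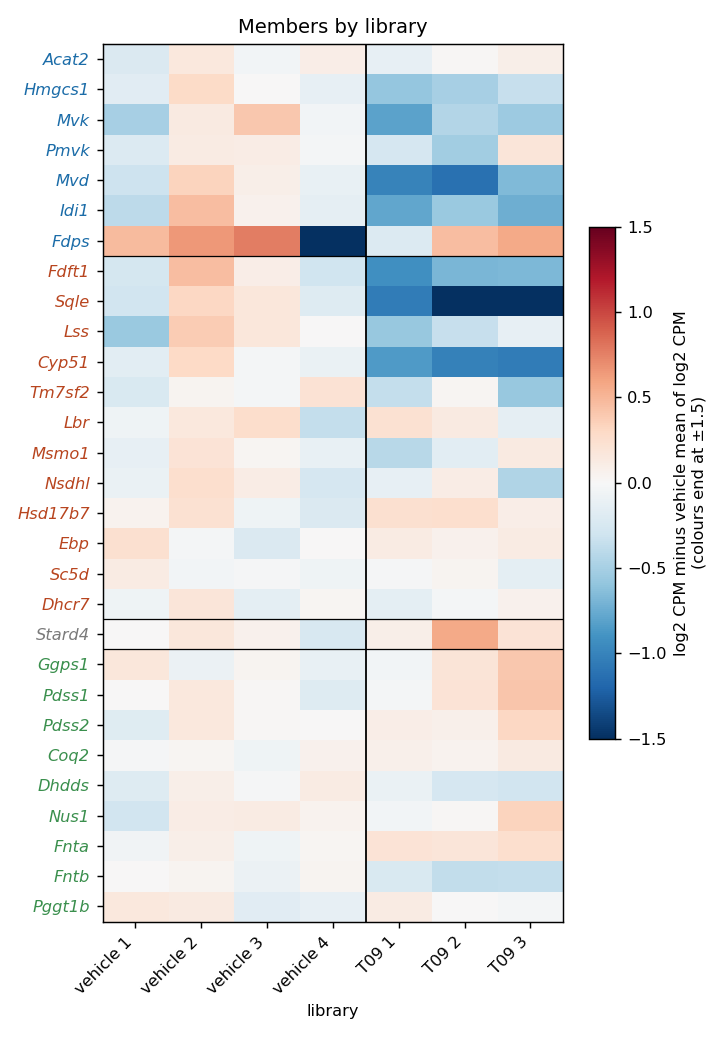
Log2 CPM of each member minus its vehicle mean of log2 CPM, by library, with symbols coloured by branch and colours ending at 1.5 in either direction. Hmgcs1, Mvd, Idi1, Fdft1, Sqle and Cyp51 are blue in all 3 T09 libraries, and vehicle replicate 2 is red for most of the upper rows.

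On the deposited FPKM scale, which is per length, the highest members with vehicle were Stard4 (74.3 ± 8.58 FPKM, SD, n = 4), Sc5d (72.7 ± 4.47), Ebp (64.8 ± 8.29) and Nus1 (52.5 ± 6.51). Stard4 and Sc5d, and Sc5d and Ebp, each differed by less than the larger SD of the pair, so the order of these neighbours is not settled. Next came Msmo1 (48.6 ± 5.24), Dhcr7 (38.0 ± 3.54) and Coq2 (37.1 ± 1.27). Nus1 and Msmo1, and Dhcr7 and Coq2, are likewise not settled in order. The 3 called genes started lower, with Cyp51 at 19.9 ± 2.92 FPKM, Sqle at 8.84 ± 1.74 and Mvd at 7.398 ± 1.38. With T09 they stood at 9.79 ± 1.24, 3.24 ± 0.932 and 3.74 ± 0.522 FPKM (SD, n = 3). The end of the sterol branch was thus measured at higher levels per length than its beginning. For 23 members the length behind the FPKM was not the listed gene length, so levels of different genes carry that uncertainty.

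**Figure D5:**
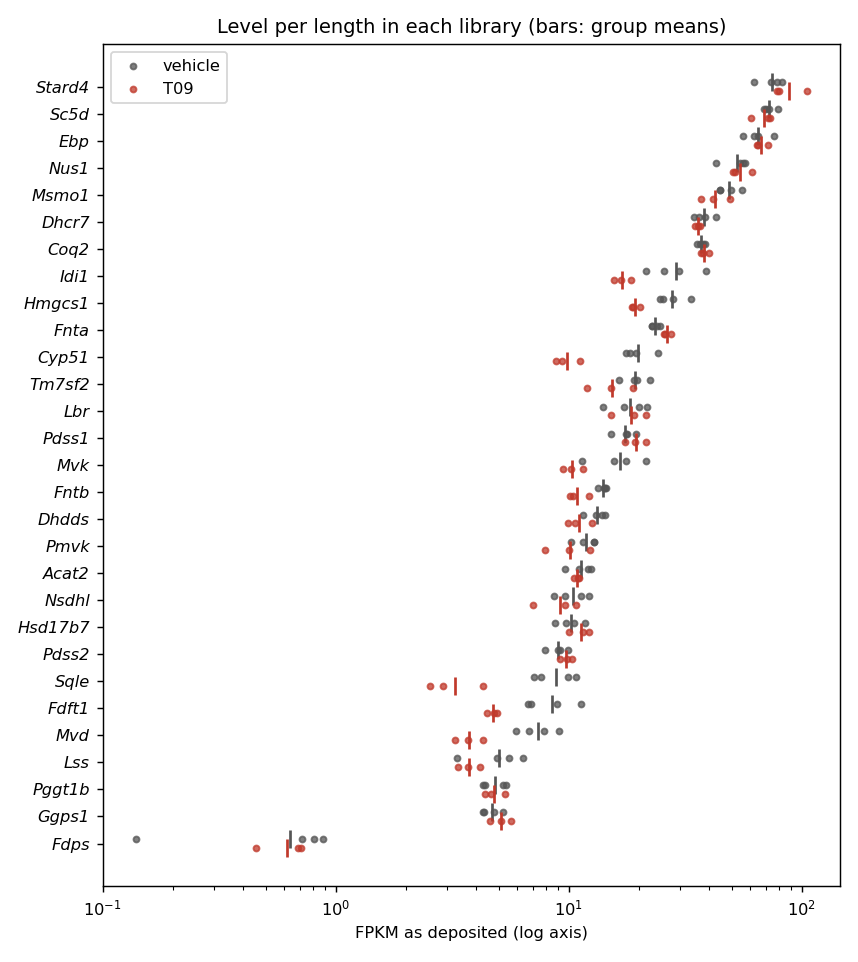
Deposited FPKM of each member in every library on a log axis, ordered by vehicle mean, with short bars at the group means. Sqle, Fdft1, Mvd, Cyp51, Idi1 and Hmgcs1 show T09 points to the left of the vehicle points, and Fdps lies below 1 FPKM in all libraries.

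Regulators and neighbours of the route were read from lists chosen with earlier results of these data known. Over all genes tested, edgeR called 2.87% lower and 1.44% higher. At an unadjusted p under 0.05 by edgeR, 10.6% were lower and 7.26% higher. Of 7 genes of sterol sensing and SREBP control, 2 were higher and 0 lower by edgeR, DESeq2 and limma-voom (1 lower at an unadjusted p under 0.05). Srebf1, which encodes SREBP-1, rose by 3.04 on the log2 scale (SE 0.15), and Insig1, which retains SREBP in the endoplasmic reticulum, by 0.58 (SE 0.13). Their edgeR adjusted p were 3.97e-05 and 0.0359, and Insig1 lost its call when vehicle replicate 1, 3 or 4 or T09 replicate 2 or 3 was left out (edgeR adjusted p 0.0769, 0.0673, 0.0585, 0.136 and 0.103). Srebf2, which encodes SREBP-2, stood at 92.4 ± 10.3 CPM (SD, n = 4) and 74.9 ± 9.29 CPM (SD, n = 3), a log2 fold change of -0.30 (SE 0.12, adjusted p 0.2315 by edgeR) that did not pass.

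Of 7 SREBP-2 responsive genes outside the route, 0 were called by edgeR, with 2 lower and 0 higher at an unadjusted p under 0.05, 1 lower by DESeq2 (Npc1l1) and 0 by limma-voom. With 4.31% of all genes tested called by edgeR, 0 of 7 is near the background. The largest log2 fold changes were those of Npc1l1, the cholesterol uptake transporter (-0.57, SE 0.15), and Npc1, which releases cholesterol from lysosomes (-0.45, SE 0.16). Of 5 tested genes of cholesterol esterification and oxidation, 1 was higher, the acyltransferase Soat1, from 12.1 ± 1.09 to 35.7 ± 1.91 CPM (log2 fold change 1.55, SE 0.12, adjusted p 2.80e-04 by edgeR). Its relative Soat2 stood at 377 ± 28.4 and 370.2 ± 38.5 CPM.

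Downstream of the isoprenoid branches, 0 of 10 genes of ubiquinone ring modification and 0 of 8 of the dolichol and glycan carrier were called by edgeR or limma-voom, and DESeq2 called 1 (Coq10b, higher) and 0. With 4.31% of all genes tested called by edgeR, 0 of 10 and 0 of 8 are near the background. At an unadjusted p under 0.05 by edgeR the ubiquinone list had 3 higher and 2 lower, and the dolichol list 0 and 0. For the ubiquinone list that is 30% and 20%, against 7.26% and 10.6% of all genes tested. Coq10b, a ubiquinone-binding protein, and Coq3, a methyltransferase of the ring, had the largest log2 fold changes of the first list (0.51, SE 0.14, and 0.48, SE 0.15), and Dpagt1 and Srd5a3 those of the second (-0.13, SE 0.11, and 0.12, SE 0.11). Of 8 genes of prenyl protein processing 1 was higher, Pcyox1, which breaks down prenylcysteine (log2 fold change 0.59, SE 0.12, adjusted p 0.0301 by edgeR). Its call was lost without vehicle replicate 2, 3 or 4 or T09 replicate 1 or 2 (edgeR adjusted p 0.0662, 0.0911, 0.0893, 0.0630 and 0.121).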

How the data were processed

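Per the labels' protocols, polyadenylated RNA was selected and primed at random. The authors deposited raw read counts per Ensembl gene, and FPKM, each named so per the file headers, and the FPKM values follow the counts at 1 constant length per gene. Tools listed, with no role, in the submitters' notes were HTSeq 0.6.1, TopHat2 2.0.12, DESeq 1.18.0 and Bowtie2 2.2.3. Build, annotation and strand handling are not given in sources used here. All 29 members overlap their GENCODE M21 gene on GRCm38, and 21 have the same ends. Gene length is deposited in bases, of another kind than count or FPKM.

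The test on counts was edgeR 4.0.16 under R 4.3.3 (filterByExpr, TMM, glmQLFit, glmQLFTest; Benjamini-Hochberg over 14250 genes; called at an adjusted p under 0.05). SE is the size of the log2 fold change divided by the square root of F. CPM uses TMM-scaled library sizes. FPKM was used only for levels. Near-identical transcripts were sought with blastn. The test was tried on simulated counts first. Libraries correlated at 0.946 to 0.985 (log2 CPM).

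Alternatives were 3 other scalings, DESeq2 1.42.0, limma-voom (limma 3.58.1), no filter, at least 1 CPM in 3 libraries, a test against 1.5-fold, the replicate number as a block and omission of each library. Omitting vehicle replicate 4 with T09 replicate 1 was added after seeing the data. Members, lists and motifs were chosen with earlier results of these data known. All members are named. Of other lists, called genes are named or, with none called, the 2 largest changes. Hmgcs1 among the promoters, Srebf2 and Soat2 were named outside this rule, after their values were seen. Promoters of called members, up to 3 neighbours and up to 2 non-sterol members are shown, none from chromosome 18. Of marker lists for B and plasma cells (4 tested) and pancreatic acinar cells (1 tested), 0 genes were called by edgeR, DESeq2 or limma-voom, and 0 had an unadjusted p under 0.05. Of 5 adipocyte markers tested, edgeR called 0 (5 lower at an unadjusted p under 0.05) and DESeq2 2 lower.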

Additional observations from a re-analysis of the deposited data

Results flagged for a closer look

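Among the 4 vehicle values of each of 29 members, Dixon's test at 95% set 1 library apart, while chance alone does so in about 1 of 20 such sets. Nus1 stood at 109.5 CPM in vehicle replicate 1, against 139 CPM in the nearest and 145 CPM in the highest vehicle library. Groups of 3 were not examined in this way.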

How the results depend on the processing

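Under 17 alternatives, 445 of 492 member values kept their direction and their side of the threshold, 9 lost the call, 11 gained one and 27 changed direction. Sqle kept its call in all of them, and Cyp51 in all but the 1.5-fold test. The count of 3 lower members was 5 with library size alone (Cyp51, Fdft1, Hmgcs1, Mvd, Sqle), 6 with DESeq2 and 6 with no filter (both with Fdft1, Hmgcs1 and Idi1 added) and 1 against 1.5-fold (Sqle). Omitting 1 library gave 2 to 5 (5 without vehicle replicate 1). Members called higher were 0 throughout. Over all genes, the count of 614 called was 1091 with DESeq2 and 179 against 1.5-fold, and 251 to 819 by omission of 1 library. The 409 lower genes were 719 with DESeq2 and 136 against 1.5-fold, and 161 to 523 by omission. The 205 higher genes were 372 with DESeq2 and 43 against 1.5-fold, and 90 to 296 by omission.

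Same-numbered libraries of both groups correlated at 0.256, 0.0302 and -0.0270 in their deviations from the group means, and 3 of 6 numbered libraries correlated best with their own number, so the number was not taken as a pairing. With the replicate number as a block, 290 genes were called, 177 lower and 113 higher. The members called lower under the block were again 3, with Fdft1 (adjusted p 0.0445 by edgeR) in and Mvd (adjusted p 0.0789 by edgeR) out.

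Direction changed in 7 members, none of them called under any alternative. With the replicate block, the log2 fold change was 0.028 for Acat2, -0.343 for Fdps, -0.038 for Lbr and -0.0073 for Pggt1b. With library size alone it was -0.044 for Fdps and -0.014 for Pggt1b. Without vehicle replicate 4 and T09 replicate 1 together it was 0.080 for Acat2, -0.114 for Fdps, -0.115 for Lbr, 0.022 for Dhcr7 and -0.061 for Pggt1b. Leaving out 1 library at a time, it ran from -0.082 to 0.050 for Acat2, -0.329 to 0.22 for Fdps, -0.040 to 0.17 for Lbr, -0.0815 to 0.011 for Sc5d, -0.087 to 0.025 for Dhcr7, -0.014 to 0.18 for Nus1 (0.195, with no change of direction, without both libraries) and -0.026 to 0.085 for Pggt1b. The cause was not tested. With 94 counts, depth limits Fdps, which the filter of at least 1 CPM leaves untested. By omission of 1 library, the branch medians ran from -0.55 to -0.38 (mevalonate), -0.21 to -0.06 (sterol) and 0.07 to 0.18 (non-sterol).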
